A study of Saccharomyces cerevisiae with 6 samples.

Results

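The cytosolic ribosomal protein genes of Saccharomyces cerevisiae were taken by symbol: every measured open reading frame (ORF) named RPL or RPS with a number directly after it, with or without a copy letter A or B, and the P protein genes RPP0, RPP1A, RPP1B, RPP2A and RPP2B. The R64 gene table of RefSeq holds 137 such genes, and 132 of them were among the 6174 ORFs measured. RPL36B, RPL41B, RPL43B, RPS19A and RPS30A were not analysed here. The 132 genes comprised 78 of the large subunit (73 RPL genes and the 5 P protein genes) and 54 of the small subunit. For 54 families both the A and the B copy were measured (108 genes), 5 genes had a sister copy that was not analysed here, and 19 had a symbol with no copy letter.

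The study used 6 two-colour arrays, each of which compared RNA from cells given 2 µg/ml doxycycline for 10 h with RNA from untreated cells of the same strain. On 4 arrays both RNAs came from tetYFH1 (BQS201, W303-1A with tetO7-YFH1::kanMX4), where a tet promoter drives YFH1, the gene of the mitochondrial iron protein frataxin, and doxycycline shuts that promoter off. On the other 2 arrays both came from W303-1A, which has no tetO7-YFH1 and serves as the control for the drug and the added culture time. All cells grew in YPG, a rich medium with glycerol as carbon source, at 30 °C and were harvested at an A600 of 0.5. Exp 1 and Exp 2 of a pair form a dye swap, with the treated RNA in Cy5 on Exp 1 and in Cy3 on Exp 2, so that A1 and A2, B1 and B2, and W303 arrays 1 and 2 are 3 pairs. The labels do not say whether arrays or pairs came from separate cultures, so the spread between pairs may be technical. Each pair counted as 1 replicate (2 for tetYFH1, 1 for W303). Within a strain, the drug and the 10 h cannot be told apart.

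The yeast cytosolic ribosome has a large and a small subunit, each built from ribosomal RNA and ribosomal proteins that are needed in equal amounts. Most of these proteins are encoded by pairs of nearly identical genes, the A and B copies left from an ancient genome duplication. Their mRNAs are among the most abundant of a growing yeast cell. Their transcription depends on Rap1, Fhl1, Ifh1 and Sfp1, and it is raised by TOR and protein kinase A signalling during rapid growth and lowered under stress, when stress genes rise.

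Values are log2 ratios of treated over untreated, as deposited, so 0 is no change and 1 is a doubling. YFH1 itself stood at −2.64 (A1), −3.29 (A2), −5.38 (B1) and −5.11 (B2) in tetYFH1 and at −0.08 and −0.05 on W303 arrays 1 and 2, and it was lower in tetYFH1 (limma, Benjamini-Hochberg adjusted p = 0.0177). The fall of YFH1 bears out the labelled direction of the tetYFH1 ratios, and the direction of the W303 ratios rests on the labels alone. Pair B had the wider arrays: the SD over all ORFs was 0.744 on B1 and 0.654 on B2, against 0.392 to 0.459 on the other 4. Exact whole log2 numbers made up 42.2% of the B1 values and 24.7% of the B2 values. Among the ribosomal protein genes 58 of 132 were whole on B1, of which 33 were exactly 1 and 22 exactly 2, and 34 were whole on B2. The members that were not whole had a median of 1.26 on B1 (74 genes) and 0.90 on B2 (98 genes). On A2 the value −0.27 was the most repeated, and 13 of the 133 ORFs within 0.01 of it were ribosomal protein genes, RPL3, RPL10 and RPP0 among them. How these repeated values arose was not tested.

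In tetYFH1, nearly all ribosomal protein genes stood above 0 after doxycycline, by a little in pair A and by about 1 log2 unit in pair B. Taken array by array, the median ribosomal protein gene was at 0.24 and 0.17 in pair A (A1, A2) and at 1.12 and 0.97 in pair B (B1, B2). The medians of all ORFs on the same arrays were 0.03, 0.02, 0.00 and 0.21. Of the 132 genes, 121, 109, 124 and 124 were above 0 on A1, A2, B1 and B2, against 54.8%, 53.1%, 34.7% and 61.3% of all ORFs. The middle of the group lay at the 74.3rd percentile of all ORFs on A1, the 70.3rd on A2, the 95.8th on B1 and the 85.2nd on B2.

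Averaged over both pairs, the median ribosomal protein gene was at 0.63, a ratio of 1.55, against 0.11 for all ORFs. The pairs differed in size: the median was 0.20 in pair A (a ratio of 1.15) and 1.01 in pair B (a ratio of 2.01). Both B arrays exceeded both A arrays for 107 of the 132 genes, and for 26.2% of all ORFs. All 4 tetYFH1 arrays were above 0 for 90 of the 132 (68.2%), a property of 11.5% of all ORFs. A further 35 genes were above 0 on 3 of the 4 arrays. The mean exceeded 0 for 131 genes, RPS14A being the exception, and for 65.8% of all ORFs.

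**Figure D1:**
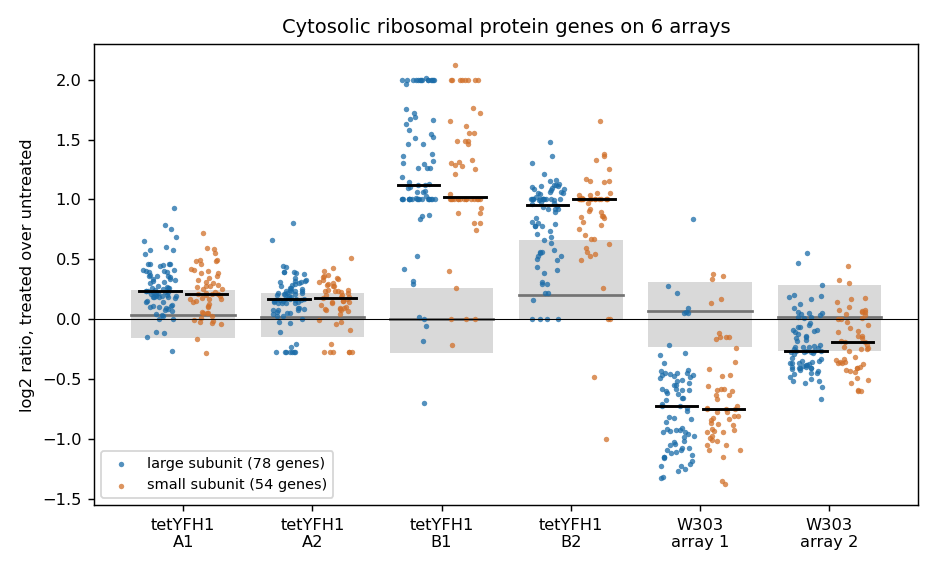
Log2 ratio (treated over untreated) of each of the 132 ribosomal protein genes on each of the 6 arrays, with 1 point per gene coloured by subunit; points are spread sideways for legibility. Black bars are subunit medians, grey boxes span the middle 50% of all 6174 ORFs and the grey line is their median. The genes cluster near 1 on B1 and B2 (rows of points at 1 and 2 are exact whole numbers), just above 0 on A1 and A2, and below 0 on W303 array 1.

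No single ribosomal protein gene passed the test in tetYFH1. At an adjusted p under 0.05 over all 6174 ORFs, limma called 25 ORFs (0.405%) and 0 of the 132, whose smallest adjusted p was 0.364. At an unadjusted p under 0.05, 68 of the 132 (51.5%) were higher, against 5.83% of all ORFs, and 0 were lower. The SD between the pairs exceeded the mean for 64 of the 132, with a median SD of 0.62 (n = 2 pairs). When arrays were averaged by Exp number instead of by letter, limma called 3 ribosomal protein genes higher, RPL33B, RPL37B and RPS22A (adjusted p 0.0215 to 0.0495), which is 2.27% of the 132 against 2.14% of all ORFs. Without pair A, with arrays as replicates, it called RPL33B, RPS22A and RPS25B (adjusted p 0.0195 to 0.0409), against 1.72% of all ORFs. Both shares are near the background. The fit without pair A took the arrays of a dye swap as separate replicates, so its spread was that within pairs.

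RPS22A, which encodes a small-subunit protein, had the highest mean. Log2 ratios of 0.48, 0.40, 2.12 and 1.65 were measured for it on A1, A2, B1 and B2, and of −0.93 and −0.41 on W303 arrays 1 and 2. All 4 tetYFH1 arrays lay above 0 and both W303 arrays below, so the strains did not overlap. The tetYFH1 mean was 1.17 ± 1.02 (SD, n = 2 pairs; limma adjusted p = 0.412), and RPS22A was the 1 member with a mean of 1 or more.

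RPL7A, a large-subunit gene, had the smallest p of the group in tetYFH1 and moved the same way in both strains. It stood at 0.39, 0.80, 1.67 and 0.78 on A1, A2, B1 and B2, and at 0.84 and 0.47 on the W303 arrays. The ranges of the strains overlapped, with means of 0.91 ± 0.44 (SD, n = 2 pairs; limma adjusted p = 0.364) in tetYFH1 and 0.65 in W303.

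RPL21B, another large-subunit gene, stood at 0.58, 0.32, 1.72 and 1.00 in tetYFH1 and at −1.26 and −0.39 in W303. RPL5 encodes the protein that carries the 5S ribosomal RNA into the large subunit. It stood at 0.93, 0.23, 1.18 and 0.44 in tetYFH1 and at −0.58 and −0.03 in W303. In RPL5 both Exp 1 arrays were above both Exp 2 arrays, so the pair means were close (0.70 ± 0.16, SD, n = 2 pairs). RPL31B, whose protein sits at the exit of the nascent-chain tunnel, had the tightest pair means of the 10 genes with the smallest p (0.65 ± 0.07) and was above 0 on all 6 arrays, W303 included (0.10 and 0.55). RPL9A (0.75 ± 0.40), RPL9B (0.69 ± 0.43), RPS9A (0.78 ± 0.58), RPL37B (0.95 ± 0.99) and RPL43A (0.92 ± 0.91) completed those 10, with adjusted p from 0.364 to 0.501.

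**Figure D2:**
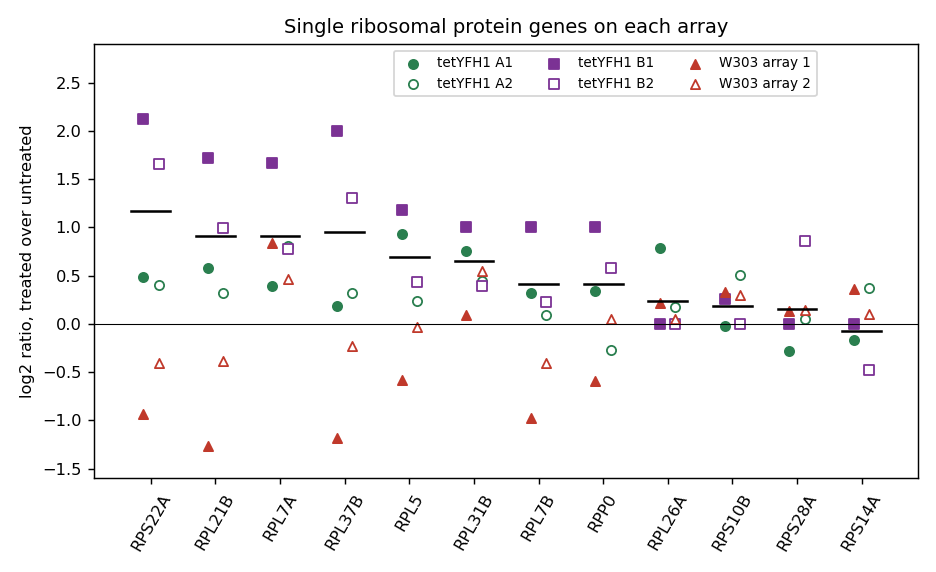
Log2 ratio of 12 ribosomal protein genes on each array; circles are pair A, squares pair B and triangles W303, filled for Exp 1 and open for Exp 2, and the black bar is the mean of the 2 tetYFH1 pairs. RPS22A, RPL21B and RPL37B have all tetYFH1 arrays above 0 and both W303 arrays below, whereas RPL7A and RPL31B are above 0 in both strains and the means of RPS14A and RPS28A lie near 0.

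A few genes stayed near 0 in tetYFH1. RPS14A, a gene of the small-subunit platform, had the lowest mean, with −0.17, 0.37, 0.00 and −0.48 on A1, A2, B1 and B2 (mean −0.07 ± 0.24, SD, n = 2 pairs). RPS29A, which encodes a zinc-binding small-subunit protein, had 0.11, −0.20, 0.40 and 0.00 (0.08 ± 0.18). In both genes the arrays of pair A lay on opposite sides of 0.

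RPL41A, the gene of a very short large-subunit peptide, ranged from −0.70 on B1 to 1.09 on B2 (0.14 ± 0.08). RPS28A ranged from −0.28 on A1 to 0.86 on B2 (0.16 ± 0.39). RPS10B ranged from −0.02 on A1 to 0.51 on A2 (0.19 ± 0.08), and RPL27A from −0.18 on B1 to 0.53 on B2 (0.22 ± 0.07). In RPL41A and RPL27A the arrays of pair B lay on opposite sides of 0, so a small SD between pairs does not mean that arrays were close. Below 0 on B1 were RPL27A, RPL39, RPL41A, RPS27B and RPS28A, and below 0 on B2 were RPS14A and RPS16A. RPS16A had 1.65 on B1 and −1.0 on B2. These names were chosen after the values were seen.

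In W303 the ribosomal protein genes stood mostly below 0 by the labelled direction, and again by unequal amounts on the arrays of the pair. Their median was −0.74 on W303 array 1 and −0.24 on array 2, against 0.07 and 0.02 for all ORFs. Genes above 0 numbered 12 on array 1 and 34 on array 2, against 56.1% and 52.1% of all ORFs. Of the 132, 117 were lower on array 1 than on array 2, and the share of all ORFs with this property was not computed. Both arrays were below 0 for 96 of the 132 (72.7%), and for 21.9% of all ORFs. The median of the means was −0.49, a ratio of 0.71, and 121 means were below 0 (42.9% of all ORFs).

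None of the 132 passed the adjusted threshold in W303 (limma, smallest adjusted p = 0.999), nor did any other ORF. At an unadjusted p under 0.05, RPL42A (−1.32 and −0.41) and RPL8B (−1.10 and −0.67) were lower, 2 of the 132 against 1.64% of all ORFs. Their names follow from the count and were chosen after the values were seen. W303 had 1 pair, so its test borrowed the spread of the tetYFH1 pairs. Without pair B, with arrays as replicates, limma called 14 ribosomal protein genes (10.6%) in W303, against 4.55% of all ORFs. All 14 were lower, with log2 ratios from −0.90 to −0.76 (adjusted p 0.0104 to 0.0402). This fit took the arrays of a dye swap as separate replicates, so its spread was that within pairs and not between them.

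Both W303 arrays were above 0 for 10 genes: RPL7A, RPL22A, RPL26A, RPL31B, RPL38, RPL40B, RPS10B, RPS14A, RPS16A and RPS28A. They comprised 6 large-subunit and 4 small-subunit genes, and 9 of them carry a copy letter. RPL40B encodes a fusion of ubiquitin with a large-subunit protein. In tetYFH1 the means of the 10 ran from −0.07 (RPS14A) to 0.91 (RPL7A), with a median of 0.39.

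Set against each other, the strains were apart for most of the genes. All 4 tetYFH1 arrays lay above both W303 arrays for 103 of the 132 (78.0%), and for 13.3% of all ORFs. All 4 were above 0 with both W303 arrays below 0 for 69 (52.3%), against 3.3% of all ORFs. The median difference, tetYFH1 minus W303, was 1.13, with the middle 50% of the genes between 0.87 and 1.33, against 0.07 for all ORFs. A difference of 1 or more was reached by 83 genes (62.9%) and by 4.68% of all ORFs. The difference between each tetYFH1 pair and W303 was 0.70 for pair A and 1.54 for pair B.

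The test of the difference itself passed for 0 of the 132 and for 0.0% of all ORFs (limma, adjusted p under 0.05, smallest among the 132 = 0.782). At an unadjusted p under 0.05, 75 of the 132 (56.8%) were higher in tetYFH1, against 3.79% of all ORFs. These counts all compare with the same W303 pair. With the W303 ratios turned to the opposite direction, the genes with all 4 tetYFH1 arrays above both W303 arrays numbered 6 and the median difference was 0.18. Turned in this way, a difference of 1 or more was reached by 1 gene (1.85% of all ORFs), and 3 genes had all 4 tetYFH1 arrays above 0 with both W303 arrays below 0 (2.96%). An unadjusted p under 0.05 for a higher value in tetYFH1 was then reached by 2 genes (2.02%). Without pair A, with arrays as replicates, limma called RPS22A and RPS25B in the difference (adjusted p 0.0345 and 0.048), which is 1.52% of the 132 against 1.62% of all ORFs. Without pair B it called RPL8B, RPL21B, RPL42A, RPS9A and RPS22A (adjusted p 0.0206 to 0.0413), all higher in tetYFH1. That is 3.79% of the 132 against 2.27% of all ORFs. Both fits took the arrays of a dye swap as separate replicates, so their spread was that within pairs.

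With the labelled direction, the largest differences belonged to RPS22A (1.84), RPL21B (1.73), RPL37B (1.66), RPL6B (1.59) and RPL43A (1.57). With the W303 ratios turned, RPL7A (1.56) led instead, and these 5 had differences from 0.03 (RPL6B) to 0.49 (RPS22A). The 95% confidence interval of the difference for RPS22A, as labelled, ran from 0.47 to 3.20. RPL37B and RPL43A encode zinc-binding large-subunit proteins. RPL37B stood at 0.19, 0.32, 2.00 and 1.30 in tetYFH1 and at −1.19 and −0.23 in W303, and RPL6B at 0.07, 0.16, 2.00 and 1.00 in tetYFH1 and at −1.12 and −0.44 in W303. Both were high on pair B alone and lower on W303 array 1 than on array 2.

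The smallest differences were those of RPS14A (−0.30), RPS10B (−0.13), RPS29A (−0.03), RPS28A (0.02) and RPL26A (0.11). RPL26A, whose protein sits near the tunnel exit, had 0.78, 0.17, 0.00 and 0.00 in tetYFH1 and 0.22 and 0.05 in W303. For these 5 genes the ranges of the strains overlapped.

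Across the 132 genes, the genes highest on B1 tended to be lowest on W303 array 1 (Pearson r = −0.43), as was the case to a lesser degree over all ORFs (r = −0.22). Both arrays carried the treated RNA in Cy5. B1 with W303 array 2 had r = −0.29 and B2 with array 1 had r = −0.295. B2 with array 2, both with the treated RNA in Cy3, had r = −0.30. The arrays of pair A had r from −0.06 to 0.32 with the W303 arrays. The arrays of a pair ranked the 132 genes alike to different degrees, with r = −0.02 for pair A, 0.27 for pair B and 0.43 for W303, against 0.60, 0.40 and 0.24 over all ORFs. These correlations are across genes, which are not independent replicates. In pair A the order of the ribosomal protein genes on 1 array did not carry over to the other.

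**Figure D3:**
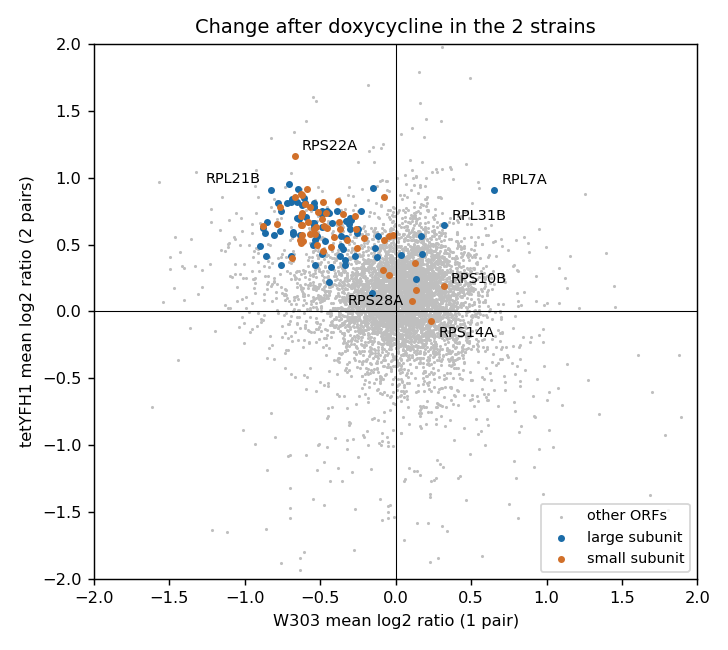
Mean log2 ratio in tetYFH1 (2 pairs, vertical axis) against that in W303 (1 pair, horizontal axis), with ribosomal protein genes in colour by subunit and all other ORFs in grey; 20 other ORFs lie beyond the axes, which end at 2 in either direction. Most of the coloured points fall in the upper left part, above 0 in tetYFH1 and below 0 in W303, while RPL7A and RPL31B are above 0 in both.

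The genes of the large and the small subunit had nearly the same medians. In tetYFH1 the large-subunit genes had a median of 0.63 (pair medians 0.21 and 1.01) and the small-subunit genes 0.62 (pair medians 0.20 and 1.01). In W303 both had a median of −0.49, and the difference between strains was 1.13 for both. The large minus small difference of medians was 0.03 on A1, 0.00 on A2, 0.10 on B1, −0.05 on B2, 0.03 on W303 array 1 and −0.07 on array 2. Its sign changed within every pair. In tetYFH1 as a whole it was 0.01 ± 0.01 (SD, n = 2 pairs).

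By counts, the shares were somewhat higher for the large subunit. All 4 tetYFH1 arrays were above 0 for 57 of the 78 large-subunit genes (73.1%) and 33 of the 54 small-subunit genes (61.1%). The strains did not overlap for 62 (79.5%) and 41 (75.9%). Whether these shares differ between the subunits was not tested. The genes at the low end of the tetYFH1 means were more mixed: RPS14A, RPS29A, RPS28A and RPS10B of the small subunit, and RPL41A and RPL27A of the large.

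The P proteins form the stalk of the large subunit, where translation factors that use GTP are bound: P0 is its base, and P1 and P2 are its flexible arms. Their genes had a median of 0.57 in tetYFH1 (range 0.41 to 0.73). RPP0 stood at 0.34, −0.27, 1.00 and 0.58 on A1, A2, B1 and B2, and its A2 value is the repeated one named above. RPP1A stood at 0.54, 0.39, 1.03 and 0.30, RPP1B at 0.24, 0.17, 2.00 and 0.50. All values of the arm genes RPP1A and RPP1B were thus above 0.

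RPP2A stood at 0.23, 0.40, 1.00 and 1.00 and RPP2B at 0.37, 0.39, 1.12 and 0.00. In W303 all 5 P protein genes were below 0 on array 1 (median −0.59), and 4 were above 0 on array 2 (median 0.05), RPP2A being at −0.26. Both W303 arrays were therefore below 0 for 1 of the 5, against 96 of all 132 and 21.9% of all ORFs. With 5 genes, whether the P protein genes depart from the others was not tested.

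The 19 genes without a copy letter had a median of 0.57 in tetYFH1, with a range from 0.35 to 0.82, and of −0.38 in W303. All 4 tetYFH1 arrays were above 0 for 8 of them (42.1%), against 11.5% of all ORFs. The strains did not overlap for 13 of the 19, against 13.3% of all ORFs. On A2, 11 of the 19 were above 0, which is near the 53.1% of all ORFs. Among those below 0 there, RPL3, RPL10, RPL32, RPP0 and RPS20 lay within 0.01 of the repeated value of −0.27 named above. The highest were RPS2, RPS15 and RPL28. RPS2, a gene needed for accurate decoding, stood at 0.22, 0.29, 2.00 and 0.78 in tetYFH1 (mean 0.82) and at −0.59 and −0.18 in W303. RPL28, in which mutations give resistance to cycloheximide, stood at 0.11, 0.44, 2.00 and 0.71 in tetYFH1 and at −1.04 and −0.35 in W303.

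RPS15, a gene of the small-subunit head, was at 0.30, −0.02, 2.00 and 1.00 in tetYFH1. The lowest of the 19 were RPL3, RPL39 and RPP0, of which RPL3 and RPP0 had the repeated value on A2. RPL3 encodes a protein that reaches toward the peptidyl transferase centre. It stood at 0.11, −0.27, 1.00 and 0.56 in tetYFH1 (mean 0.35) and at −1.16 and −0.37 in W303. RPL39, which encodes a short protein lining the exit tunnel, stood at 0.26, 0.21, −0.06 and 1.11 (mean 0.38).

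A and B copies were compared within each of the 54 families for which both were measured, RPP1 and RPP2 included. Copies share much of their sequence and the type of probe is not given in the sources used here, so the signal of 1 copy may hold some of the other. In tetYFH1 the A copies had a median of 0.64 and the B copies 0.64, and in W303 −0.49 and −0.53. The median of B minus A over the families was 0.02 in tetYFH1 (pair medians 0.02 and −0.01) and −0.05 in W303. The B copy was the higher one in 30 families and the A copy in 24 in tetYFH1, and in 24 and 30 in W303. The median of B minus A was no larger than the spread between the pairs (SD 0.02, n = 2 pairs).

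Both copies had a tetYFH1 mean above 0 in 53 of the 54 families and a W303 mean below 0 in 44. The median absolute difference between copies was 0.15 in tetYFH1 and 0.20 in W303, against 0.17 and 0.24 over the 8592 pairs from different families. Across families, the A and the B values of the tetYFH1 means had r = −0.15 and those of the W303 means r = −0.11 (54 families on the same arrays). The B minus A difference itself was repeated within pair B (r = 0.50 between B1 and B2) and within W303 (r = 0.61), and not within pair A (r = −0.06). Between the arrays of pair B and those of W303 it had r from −0.49 to −0.25, and between those of pair A and W303 from 0.15 to 0.35. These correlations are descriptions across families.

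The sign of B minus A was the same on all 4 tetYFH1 arrays in 4 of the 54 families, with B higher in 2 and A higher in 2. Whether this count exceeds what random signs would give was not tested. In RPL7 the A copy was higher, with B minus A at −0.07, −0.71, −0.67 and −0.55 in tetYFH1 (−0.50 ± 0.16, SD, n = 2 pairs) and at −1.82 and −0.87 in W303. RPL7B, the lower copy, stood at 0.32, 0.10, 1.00 and 0.22 in tetYFH1 and at −0.98 and −0.40 in W303, so the copies had opposite signs in W303. RPL7 thus had A above B on all 6 arrays, and its W303 difference of −1.34 was the largest of the 54.

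In RPS28 the B copy was higher in tetYFH1, with B minus A at 0.42, 0.03, 2.00 and 0.39 (0.71 ± 0.68), and lower in W303, at −1.18 and −0.33. In RPL21 the same held, with 0.39, 0.07, 0.72 and 0.08 (0.32 ± 0.12) in tetYFH1 and −0.99 and −0.15 in W303. In both families the B copy thus stood further from 0 in each strain. In RPL24, whose protein helps to bridge the subunits, the A copy was higher by less, with B minus A at −0.20, −0.06, −0.15 and −0.28 (−0.17 ± 0.06) in tetYFH1 and 0.58 and −0.24 in W303.

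Other families had wide gaps on some arrays and were chosen after their values were seen. RPS14 had B minus A at 0.57, −0.24, 1.72 and 1.65 in tetYFH1, a mean of 0.93 that was the largest in size of the 54, and 0.01 and −0.63 in W303. RPS22 ran the other way on pair B, with 0.23, −0.30, −2.12 and −1.39 in tetYFH1 (mean −0.90) and 0.77 and 0.49 in W303. In both families the arrays of pair B had 1 sign and those of pair A opposite signs. In W303, the difference was 0.5 or more in size in 11 families, and 1 or more in RPL7, RPS10 and RPL22. RPS10B exceeded RPS10A by 1.68 and 0.71 on the W303 arrays, and RPL22B was below RPL22A by a difference of −1.29 and −0.85. In tetYFH1 these families had means of −0.45 and 0.06.

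**Figure D4:**
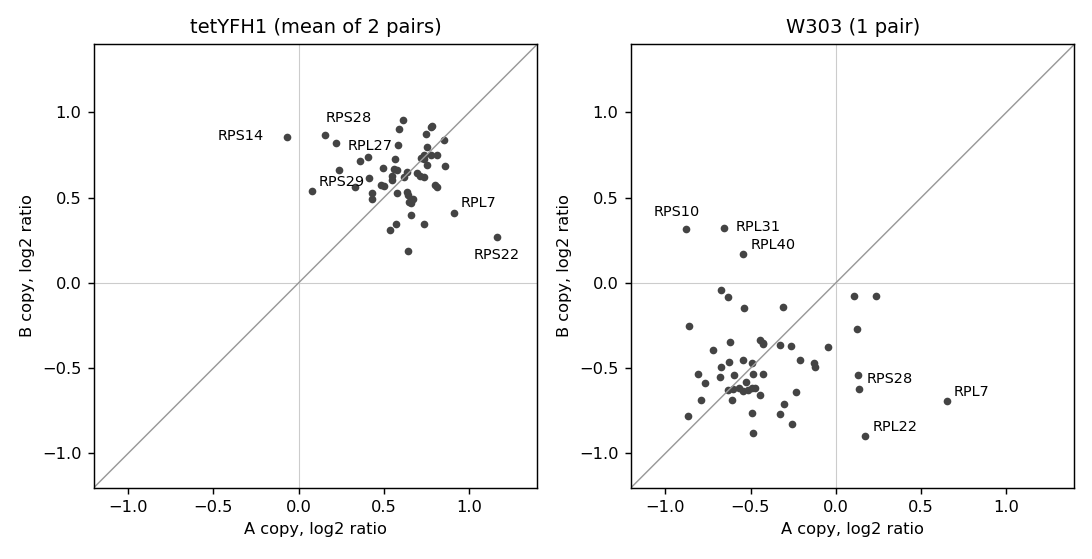
B copy against A copy for the 54 families with both copies measured, as mean log2 ratio in tetYFH1 (left, 2 pairs) and in W303 (right, 1 pair); the diagonal marks equal values and the 6 families farthest from it are named in each panel. All families but RPS14 lie in the upper right in tetYFH1, and most lie in the lower left in W303, on both sides of the diagonal.

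The genes that control, escort and use ribosomal proteins were compared through lists set by symbol. These lists were chosen with earlier results of these data known, so their shares are descriptions. Of 20 regulators of ribosomal protein transcription and growth signalling, 9 had a tetYFH1 mean above 0, against 65.8% of all ORFs. Their median was −0.05, with 0.11 for all ORFs, and 0 passed the threshold. RAP1, FHL1 and IFH1, which encode the core activators at these promoters, had means of 0.25, 0.32 and −0.09. CRF1, which encodes a corepressor that competes with Ifh1, stood at −1.80, −1.87, −0.69 and −0.69 in tetYFH1 (−1.26 ± 0.81, SD, n = 2 pairs; limma adjusted p = 0.284) and at −0.28 and 0.78 in W303. It was below 0 on all 4 tetYFH1 arrays. YAK1, a kinase gene of the TOR and protein kinase A pathway, had pair means of −0.06 (A) and −2.08 (B), with an SD of 1.43 about its mean of −1.07. BCY1, the gene of the inhibitory subunit of protein kinase A, had pair means of −0.16 and −1.18 (−0.67 ± 0.72). STB3, a repressor gene, had −0.32 and −0.65 (−0.48 ± 0.23).

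The 8 dedicated chaperones of ribosomal proteins had a tetYFH1 median of 0.07. On each of A1, A2 and B1, 1 of the 8 was above 0, and on B2 6 were. The shares of all ORFs above 0 on A1, A2, B1 and B2 were 54.8%, 53.1%, 34.7% and 61.3%. On B1, RRB1, SYO1, ACL4, TSR2 and BCP1 stood at 0.00, so the low count there does not mean that most fell. Their array medians were −0.26, −0.21, 0.00 and 0.83, and their W303 median was −0.38. None of the 8 passed the threshold (limma).

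Of 9 ribosome-associated proteins, 8 had a tetYFH1 mean above 0 (median 0.38), against 65.8% of all ORFs, and 0 passed the threshold. ASC1, which encodes a scaffold protein bound to the small subunit, stood at 0.44, −0.01, 2.00 and 0.43 in tetYFH1 and at −0.94 and −0.10 in W303. Of 34 translation factors, 31 had a tetYFH1 mean above 0 (median 0.32) and 0 passed. A W303 mean below 0 was found for 30 of the 34 (median −0.32), against 42.9% of all ORFs. HCR1, an initiation factor gene, had a mean of 0.74 ± 0.20 (limma adjusted p = 0.441). The elongation factor genes TEF4, EFB1 and YEF3 had means of 0.66 ± 0.48, 0.57 ± 0.14 and 0.80 ± 1.06. The 3 factors with a mean below 0 were also elongation factor genes, TEF1 (−0.10), HEF3 (−0.10) and CAM1 (−0.03). Of 10 genes listed for RNA polymerase I, which transcribes ribosomal RNA, 9 had a tetYFH1 mean above 0 (median 0.27), with 0 called. The 1 below 0 was RRN3 (−0.18), which encodes an initiation factor and not a subunit. In W303, 6 of the 10 had a mean below 0. Of the genes of the catalytic core of the polymerase, RPA135 stood at −1.12 and −1.19 there and RPA190 at 0.16 and 0.28.

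The medians of the general stress genes lay on the other side of 0 from those of the ribosomal protein genes. The 22 genes had medians of −0.13, −0.26, −1.30 and −1.73 on A1, A2, B1 and B2, and of 0.25 and 0.70 on the W303 arrays. Single genes were mixed: 10 of the 22 were above 0 on A1 (54.8% of all ORFs), and 7 had a W303 mean below 0 (42.9% of all ORFs). In tetYFH1, 5 of the 22 passed the threshold, against 0.405% of all ORFs. All 5 were lower: TKL2, GND2, NQM1, ALD3 and CTT1 (limma adjusted p 0.0155 to 0.0278). Since the list was chosen with earlier results of these data known, its share of called genes is no test of stress genes as a group. CTT1, the gene of cytosolic catalase, stood at −1.45, −1.62, −1.99 and −2.31. The 5 called genes were low in both pairs, while the median of the list was farther from 0 in pair B, as was that of the ribosomal protein genes. In W303, where none passed, TKL2 (−0.87), GND2 (−0.63), CTT1 (−0.64) and NQM1 (−0.10) also had means below 0, and ALD3 had 0.42.

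The ribosomal protein genes of mitochondria, 54 with MRPL, MRPS or RSM symbols, had medians above 0 in both strains. Their medians were 0.28, 0.20, 0.14 and 0.19 in tetYFH1, with pair medians of 0.24 and 0.23. On B2 the median of all ORFs was 0.21. Genes above 0 numbered 49, 48, 30 and 34 of the 54 on A1, A2, B1 and B2. The shares of all ORFs above 0 on these arrays were 54.8%, 53.1%, 34.7% and 61.3%. The B2 count was thus near the share of all ORFs. On all 4 arrays 16 were above 0, against 11.5% of all ORFs. In W303 the medians of these genes were 0.26 and 0.62, and 53 of the 54 means were above 0. A mean below 0 was found for 1 of them, against 42.9% of all ORFs. In none of the 54 did all 4 tetYFH1 arrays exceed both W303 arrays, as they did in 103 of the 132 cytosolic genes and 13.3% of all ORFs.

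**Figure D5:**
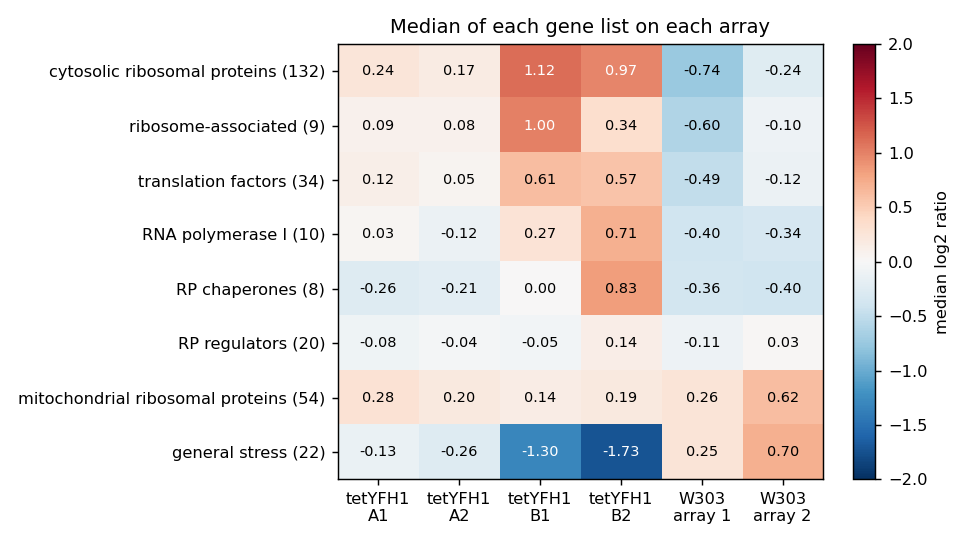
Median log2 ratio of each gene list (rows, with the number of genes) on each array (columns); the colour scale and the printed values are both the median. The medians of cytosolic ribosomal protein genes, ribosome-associated proteins and translation factors are above 0 on all tetYFH1 arrays and below 0 on both W303 arrays. Those of general stress genes are the reverse, and those of mitochondrial ribosomal proteins are above 0 on all 6.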

How the data were processed

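The 6 arrays hold 6174 ORFs, each with a log2 ratio the authors deposited, from 8 µg of total RNA per the labels' protocols. How these ratios were normalized and filtered, and the type of probe, are not known here, and precision is limited by the number of arrays. ORF names were matched to R64 RefSeq locus tags for symbols alone (5675 matched, 499 did not). The arrays of a dye swap were averaged into 1 replicate. limma 3.58.1 (R 4.3.3) then estimated a mean for each strain from these 3 pairs, with eBayes moderation (1 residual and 6.64 prior degrees of freedom), two-sided p-values, Benjamini-Hochberg adjustment over all ORFs and a threshold of 0.05. The fit was tested on simulated data. The members and lists were chosen with earlier results of these data known. Described in full were the genes with the smallest p, the lowest means, the largest and smallest strain differences, copy pairs of 1 sign, the P proteins and the extreme genes without a copy letter. Averaging, centring, scaling, moderation, whole numbers and left-out arrays were varied.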

Additional observations from a re-analysis of the deposited data

Results flagged for a closer look

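The medians of the ribosomal protein genes lay on opposite sides of 0 in the strains. The median difference, tetYFH1 minus W303, was 1.13, with medians above 0 on all 4 tetYFH1 arrays and below 0 on both W303 arrays, and the difference of medians was not tested. Among the 33 genes described in full, some of which were chosen for large strain differences, 16 had every tetYFH1 array above 0 and both W303 arrays below. Over all 132 the share was 52.3%, and over all ORFs 3.3%. Their differences were 1.84 for RPS22A, 1.73 for RPL21B, 1.66 for RPL37B, 1.59 for RPL6B, 1.57 for RPL43A, 1.54 for RPS9A, 1.51 for RPL28, 1.49 for RPS28B, 1.34 for RPL9B, 1.21 for RPS2, 1.10 for RPL7B, 1.08 for RPP2A, 1.00 for RPL5, 0.99 for RPL9A, 0.96 for RPL24A and 0.85 for RPL21A. limma's test of the difference passed for 0 of them after adjustment. The W303 side of each rests on 1 pair and on the labelled direction of its ratios. Dixon's test flagged no tetYFH1 array for the 33 genes described in full or for the medians. With only 4 arrays, in pairs that differ in level, this test could hardly flag any array. Whether an array stood apart from the others is therefore not decided by it.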

How the results depend on the processing

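The tetYFH1 median of 0.63 stayed above 0 under every setting run, at 0.56 with arrays centred, 0.53 with arrays also scaled, 0.64 without ORFs at whole numbers on B1 or B2, 0.20 without pair B and 1.01 without pair A. The count of called genes in tetYFH1 was 3 instead of 0 with averages over arrays of 1 Exp number (132 of all ORFs called), and leaving out arrays or pairs gave 0 to 3 (106 of all ORFs at the upper end). In W303 leaving out gave 0 to 14 calls and in the difference 0 to 5, where 281 and 140 of all ORFs were called at the upper ends. The fit of single arrays with the Exp number as a replicate block called 0 of the 132 (59 of all ORFs). By the labels the Exp number goes with the dye of the treated RNA, and whether it also marks a shared culture is not stated. With the W303 ratios turned, the W303 median was 0.49, the median difference 0.18 and the non-overlapping genes 6 (14.0% of all ORFs). In this setting, chosen for these counts after seeing the data, 1 gene reached a difference of 1 or more, 3 had all tetYFH1 arrays above and both W303 arrays below 0, and 2 had an unadjusted p under 0.05. All 4 tetYFH1 arrays were above 0 for 84 genes after centring (8.73% of all ORFs), and 98 genes were above 0 on both arrays without pair B (37.7%) and 118 without pair A (25.3%). Large minus small was 0.0361 after scaling and ran from −0.0044 to 0.0374 as arrays or pairs were left out, and B minus A from −0.0135 to 0.0446, so both changed sign. Means near 0 changed sign too: as arrays or pairs were left out, RPL3 ran from −0.0808 to 0.778, RPL41A from −0.31 to 0.583, RPS14A from −0.239 to 0.1003, RPS28A from −0.116 to 0.431 and RPS29A from −0.0463 to 0.20. RPL37B and RPS22A passed with Exp-number averages (adjusted p 0.0495 and 0.0215), and RPS22A without pair A (0.0195). The cause of these changes was not tested. Exp-number averages leave the medians as they are by construction.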
